A study of Mus musculus with 3 samples.

Results

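A total of 257 matches to the seed of miR-155-5p lay in 256 stretches of 3′UTR, in 250 genes, that Argonaute 2 (Ago2) peaks covered in N2A cells. They were selected on peak coverage. A stretch was a run of at least 8 nt of a gene's longest 3′UTR that peaks of at least 2 of the 3 libraries covered on the strand of the gene, and it was kept when the whole match to positions 2 to 8 of the miRNA lay inside it. The genome held 1967 such matches in the 3′UTRs of 21028 protein-coding genes, and 30343 stretches were covered in the same way with or without a match. Their coverage is therefore a description, and tests were made only on properties that the choice did not use.

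Ago2 HITS-clip was performed on N2A cells, a mouse neuroblastoma line, under basal conditions, with an antibody to Ago2 (clone 2D4), after exposure to ultraviolet light of 400 mJ per square cm followed by 2 exposures at 200 mJ. The 3 libraries formed 1 group with no control sample beside it, and nothing in the labels says that they came from separate cultures. Their peaks, 711377, 498071 and 829936 in replicates 1, 2 and 3, covered 6.64%, 17.6% and 17.5% of the 3′UTR bases. Read depth is unknown because the table holds intervals and a score but no counts.

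A miRNA loaded into Ago2 finds its transcripts mainly by pairing of its seed, near its 5′ end, with the 3′UTR, and an A after the match, opposite the first base of the miRNA, makes the site an 8mer. miR-155-5p is cut from the transcript of the host gene Mir155hg and is best known in activated B cells, T cells and macrophages, where it restrains inhibitors of inflammatory signalling. It is also studied in microglia after brain injury.

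Markers of the cell line were compared first. A covered stretch was found in 9 of 14 neuronal and neuroblastoma markers, among them Phox2a, Hand2 and Tubb3. Of the myeloid markers 1 of 10 had one, Ptprc, and of the lymphoid markers 2 of 9, Ms4a1 and Lck. Over all genes with a 3′UTR the share was 34.6%.

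Mature miR-155-5p, as given by RefSeq on GRCm38.p6 (chr16:84714143.0-84714165.0, plus strand), is shown with its seed, positions 2 to 8, in capitals.
miR-155-5p: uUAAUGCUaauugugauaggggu

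The sequence opposite the seed is AGCATTA, and AGCATTAA for an 8mer. Of 1679 mature names in the RefSeq table, miR-155-5p was the only 1 with this seed. The Mir155 hairpin itself carried 2, 2 and 1 same-strand peaks in replicates 1, 2 and 3 and 0 on the opposite strand in each, and in every library they overlapped the 5p arm by at least 15 nt. Same-strand peaks overlapped the 5p arm by at least 15 nt in every library at the hairpins of miR-142a-5p, miR-17-5p and miR-21a-5p too. Of these hairpins that of miR-142a-5p also had 1 peak on the opposite strand, in replicate 1. The host gene of Mir155, Mir155hg (chr16:84703167-84715245), had 10, 2 and 20 same-strand peaks, against 6, 0 and 0 on the other strand. Its span holds the hairpin, so these counts are not separate from those of the hairpin. Peaks on the hairpin do not give a level of the mature miRNA.

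The 3′UTR sequences shown next come from GRCm38.p6 and read 5′ to 3′ along the transcript, with the bases opposite the seed in capitals and the base opposite position 1 last. Members were ordered by the number of libraries, then 8mer before 7mer, then the number of libraries with the match away from the peak edges, then the shortest stretch. Shown are the first 6, all 8mers covered in all 3 libraries, and 2 of the 7mers that follow.
Mcm2, 8mer, chr6:88883841-88883863, minus strand: ctaggccaaggctgtAGCATTAa
Map3k14, 8mer, chr11:103219962-103219984, minus strand: cttaggactcattgtAGCATTAa
Ube2k, 8mer, chr5:65596369-65596391, plus strand: acaagcaataaaagaAGCATTAa
Wee1, 8mer, chr7:110142687-110142709, plus strand: tcttgctgtaaaactAGCATTAa
Slc38a2, 8mer, chr15:96687929-96687951, minus strand: tgttatttatagagcAGCATTAa
Ash1l, 8mer, chr3:89079333-89079355, plus strand: aatccttgaaagtctAGCATTAa
Lims1, 7mer, chr10:58421629-58421651, plus strand: ttaaaactatgtcagAGCATTAg
Marcks, 7mer, chr10:37133960-37133982, minus strand: aaaaaaagagataacAGCATTAg

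Mcm2, a subunit of the helicase that unwinds DNA for replication, had its match 151 nt after the stop codon in peaks of 91, 94 and 101 nt in replicates 1, 2 and 3. Map3k14, the kinase NIK of non-canonical NF-κB signalling, had peaks of 118, 99 and 86 nt over its match. In Ube2k, a ubiquitin-conjugating enzyme, the peaks measured 95, 162 and 80 nt. The match of all 3 genes lay within 18.5 nt of the peak middle in every library, as the order of naming favours. Wee1, the kinase that holds back entry into mitosis, had peaks of 92, 326 and 114 nt. In Slc38a2, a transporter of neutral amino acids, the match lay in a peak of 108 nt in replicate 1 but in peaks of 686 and 693 nt in replicates 2 and 3, whose middles were 231.5 and 230.0 nt away. Ash1l, a histone methyltransferase, had peaks of 86, 85 and 151 nt, and its match ended 21 nt before the end of the 3′UTR.

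All 19 of the 8mers covered in all 3 libraries were named by this order. Beside those above they were in Wdr45b, an autophagy protein, Ddi2, a protease, Mfsd2a, a transporter of lipids into the brain, Tenm3, a teneurin of neuronal adhesion, Eml5, a microtubule-binding protein, Ppp1cb, a catalytic subunit of protein phosphatase 1, and Bend4. The others were in Jarid2, a partner of Polycomb repressive complex 2, Kdm2a, a histone demethylase, Clcn6, an endosomal chloride transporter, Trps1, a GATA-type repressor, Ywhaz, a 14-3-3 protein, and Rab8b, a small GTPase of vesicle traffic. The widest peak over any of these 19 matches was in Mfsd2a, with 82, 102 and 2682 nt. The first 7mers in order were in Lims1, an adaptor of focal adhesions, Far1, an enzyme of ether lipid synthesis, Marcks, an actin-binding substrate of protein kinase C, Nfatc3, a calcium-regulated transcription factor, Sept11, a septin, and Rsrp1. Of these Lims1 had 106, 2940 and 272 nt, and Nfatc3 96, 95 and 99 nt.

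Coverage of the members was uneven between libraries. Of the 257 matches, 60.3% were covered in replicates 2 and 3 without replicate 1, 51 in all 3 libraries, 26 in replicates 1 and 3 and 25 in replicates 1 and 2. Replicate 1 thus covered 102 members, and replicates 2 and 3 covered 231 and 232. Just outside the rule, 401 matches were covered in 1 library, and 1309 in none. The length limit of 8 nt removed no match near it, since the shortest stretch with a match measured 18 nt.

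**Figure D1:**
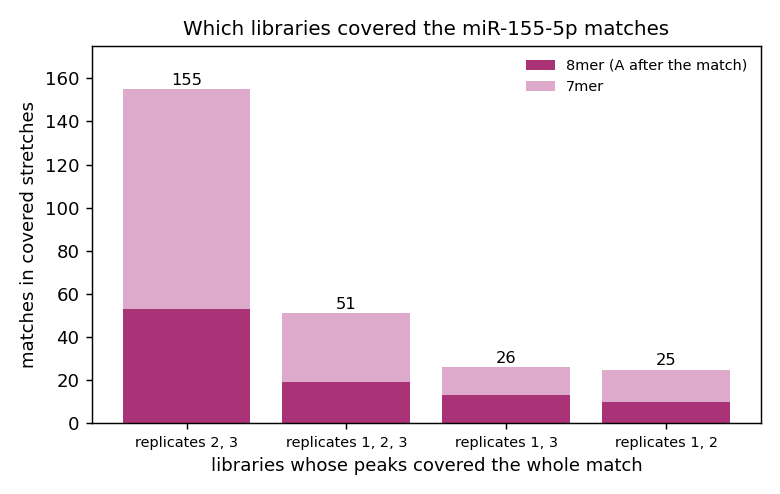
Number of miR-155-5p seed matches in covered stretches by the libraries whose peaks covered the whole match, with 8mers (dark) and 7mers (light) stacked. Replicates 2 and 3 without replicate 1 made up 60.3% of the 257, and 51 were covered in all 3 libraries.

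Peaks over the members had median widths of 94.5, 101.5 and 103 nt in replicates 1, 2 and 3. Peaks of at most 85 nt were 16.7%, 13.5% and 11.3% of these, against 71.5%, 61.4% and 52.8% of all peaks of the same libraries. The sets are unlike, since all peaks include those outside 3′UTRs and those of 1 library alone. Members needed the whole match covered in at least 2 libraries, which favours wide peaks, so the difference is not read as a property of the sites. The match lay a median of 19.25, 18.5 and 18.5 nt from the middle of its peak. Without the outer 30 nt of each peak, 116 of the 257 matches were still covered in at least 2 libraries and 12 in all 3. Peaks on the opposite strand of at least 2 libraries covered 3 of the members. The stretches had a median length of 137.5 nt, against 86 nt for all stretches, and a longer stretch has more room for a match.

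The share of covered matches was compared with sequences of like composition. Of all 1967 matches 13.1% were covered (95% Wilson interval 11.6% to 14.6%, counting error only), against a background of 9.76% of all 7-nt windows of the 3′UTRs and 11.5% of windows with 5 A or T, as the match has. Its reverse complement, TAATGCT, has the same bases and was covered at 314 of 2237 positions, 14% (12.7% to 15.5%). The miR-155-5p match was covered in 8.39%, 19.2% and 21.5% of cases in replicates 1, 2 and 3. The reverse complement was covered in 8.14%, 21.5% and 21.6%. The ratio of both shares was 0.974 ± 0.0713 (SD, n = 3), with a ratio above 1 in replicate 1 and below 1 in replicates 2 and 3. Against windows with 5 A or T the ratio was 1.13 ± 0.0798 and above 1 in all 3 libraries. Coverage of the members' own sequence was therefore not separated from that of its reverse complement by these libraries.

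Matches to other miRNA seeds gave 13.6% for miR-21a-5p, 15.6% for miR-142a-5p and 19.0% for miR-17-5p, with intervals of 12.02% to 15.3%, 14.5% to 16.8% and 17.6% to 20.5%. The interval of miR-155-5p overlapped those of miR-21a-5p and miR-142a-5p and lay below that of miR-17-5p, whose match has 4 A or T. On the opposite strand 15 miR-155-5p matches, 0.763%, were covered in at least 2 libraries.

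**Figure D2:**
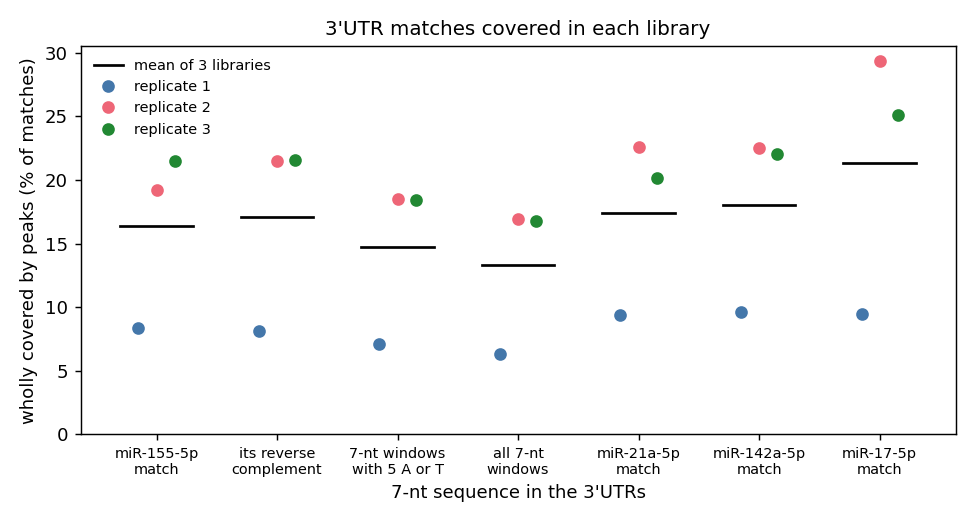
Share of 3′UTR matches wholly covered by peaks (percent) in each library (points) with the mean of the 3 libraries (line), for the miR-155-5p match, its reverse complement, 7-nt windows and 3 other miRNA seed matches. Replicate 1 lay lowest for every sequence, and the miR-155-5p match lay near its reverse complement.

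Around all matches, coverage was higher close to the match than far from it. The share of positions covered in at least 2 libraries was 13.5% at the miR-155-5p match and 11.6% at 200 to 300 nt from it. Within the libraries the ratio of both was 1.14 ± 0.0562 (SD, n = 3), with 1.12, 1.10 and 1.21 in replicates 1, 2 and 3. The reverse complement gave 1.17 ± 0.0242, miR-17-5p 1.21 ± 0.0514, miR-21a-5p 1.25 ± 0.153 and miR-142a-5p 1.301 ± 0.0934. The ratio of the reverse complement was 1.19, 1.15 and 1.16 in replicates 1, 2 and 3, so that it was above that of the miR-155-5p match in replicates 1 and 2 and below it in replicate 3.

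**Figure D3:**
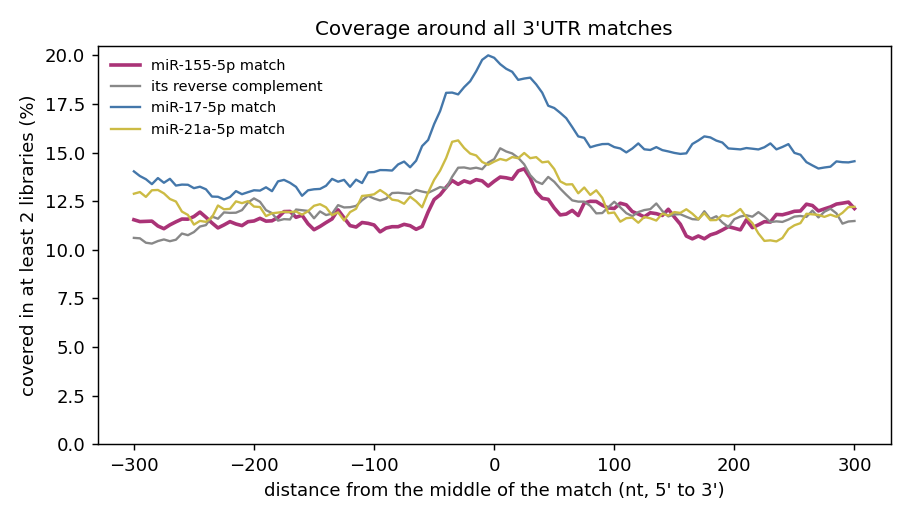
Share of positions covered by peaks of at least 2 libraries (percent) against the distance from the middle of the match (nt), over all 3′UTR matches of each sequence. Coverage at the miR-155-5p match was 13.5%, below the 14.7% at its reverse complement and the 19.9% at the miR-17-5p match.

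Other matches in the same 3′UTRs were the comparison for the members. The 250 3′UTRs held 47 further matches, 28 of them covered in no library and 19 in 1, and 26 of the 3′UTRs held both kinds. An 8mer was found at 95 of 257 members (37.0%) and at 14 of 47 others (29.8%), an odds ratio of 1.38 (two-sided Fisher's exact test, p = 0.410, adjusted p = 0.478 over 7 tests). Over all matches the share of 8mers was 33.1%. The odds ratio fell under 1 with peaks trimmed by 30 nt or with matches compared within each 3′UTR, so that no direction is given for it.

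Coverage in the library left out of the choice was compared in the same way. Matches covered in both replicates 2 and 3 were covered in replicate 1 in 24.8% of 206 cases, against 13.6% of 44 other matches of the same 3′UTRs. For replicate 2 the shares were 66.2% of 77 and 4 of 10, and for replicate 3 they were 67.1% of 76 and 6 of 12. The share was higher at the chosen matches in 3 of 3 libraries, and none passed the test (two-sided Fisher's exact tests, adjusted p = 0.383, 0.383 and 0.478). The covered ones among the chosen matches were the same 51 in each comparison, so the 3 comparisons are not independent. Compared within each 3′UTR, the odds ratio for replicate 1 turned to 0.672. With the reverse complement the shares were 23.1%, 64.8% and 68.6% at the chosen positions and 8.77%, 59.3% and 47.8% at the others.

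The A/T content of the 30 nt on each side of a match was 62.5% at members and 59.6% at the others (medians over the 26 3′UTRs with both), with members higher in 14 of 26 (exact sign test, two-sided, p = 0.845, adjusted p = 0.845). The sign of this difference changed under several settings given with the processing. For the reverse complement the content was higher at covered positions in 34 of 49 3′UTRs (exact sign test, p = 0.00940, not adjusted). For the miR-142a-5p match it was higher in 62 of 94 (exact sign test, p = 0.00259), for miR-17-5p in 52 of 74 (exact sign test, p = 0.000643) and for miR-21a-5p in 15 of 23 (exact sign test, p = 0.210), not adjusted either. Whether miR-155-5p differs from these sequences in A/T content was not tested. The distance to the nearer end of the 3′UTR had a median of 917.5 nt at members and 1161.75 nt at the others, and it was larger at members in 8 of 26 (p = 0.0755, adjusted p = 0.383, exact sign test). No property of the members among these passed the adjusted threshold of 0.05.

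Members were spread along their 3′UTRs, a median of 1035 nt after the stop codon (lowest 9, highest 7632). The part of the 3′UTR nearest to the stop codon, when cut in 3 equal parts, held 41.2% of members, against 29.0% of all miR-155-5p matches. The same part held 36.3% of covered reverse complements and 37.0% of all covered stretches. The 3′UTRs with a member had a median length of 2901 nt, against 2659 nt for those with any match. The median A/T content around a match was 65% over all members and 61.2% over all matches outside the stretches.

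Pairing beyond the seed was counted at the members alone, so these counts have no comparison and nothing particular to the members is read from them. The 23-nt window was read at 246 members, and some members with a whole window were left out. Aligned without gaps, the 246 paired at a median of 4 of the 15 positions from 9 to the 3′ end of the miRNA. Among these the match with most pairs, 10, was in Dcaf7, a subunit of ubiquitin ligases, and is shown with the bases opposite the seed in capitals.
Dcaf7, 7mer, chr11:106057514-106057536, plus strand: cttcctatcaaaatcAGCATTAg

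The 4 bases opposite positions 13 to 16 of the miRNA, where pairing can supplement the seed, were found within 12 nt before the match at 10 of 257 members (3.89%) and at 0 of 47 others, which allows a share of up to 6.38% (two-sided Fisher's exact test, p = 0.371, adjusted p = 0.478). The difference of 3.89 percentage points was 0.778 when these bases had to lie opposite the positions without a bulge, and it turned to -2.68 with peaks trimmed by 30 nt and to -0.436 against all matches outside the stretches in any 3′UTR. The Jarid2 match that is covered in all 3 libraries was 1 of the 10.

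Sites of the other seeds gave 8mer shares of 21.7% at covered and 20.6% at other matches for the reverse complement, 27.7% and 32.3% for miR-142a-5p and 32.4% and 16.5% for miR-17-5p. The natural log of the odds ratio of an 8mer, covered against other matches, differed between miR-155-5p and these sequences by 0.26 ± 0.48, 0.54 ± 0.40 and -0.56 ± 0.45 (± SE). A likelihood ratio test of the interaction in a logistic model over matches, n = 47 in the smallest group, gave adjusted p = 0.588, 0.316 and 0.316. For miR-21a-5p the 8mer shares were 29.1% of 227 covered and 21.4% of 28 other matches, an odds ratio of 1.503 (two-sided Fisher's exact test, p = 0.507, not adjusted), and its difference from miR-155-5p was not tested.

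Genes reported elsewhere as targets of miR-155 were taken as a list of 36, written from general knowledge and mostly from immune cells. A covered stretch was present in 29 of the 36, a seed match in 23, both in 19 and a member in 10. Over all genes with a 3′UTR, 34.6% had a stretch and 8.28% a match, and 250 of 876 with a match and a stretch anywhere in the 3′UTR held a member, which is 28.5%. Of the 28 matches in the listed genes 11 were covered in at least 2 libraries, 11 in 1 and 6 in none. The 11 are 39.3% of the listed genes' matches, beside 13.1% of all matches, and nothing particular to the list is read from this. Most of the covered matches of the list are shown, other than that of Wee1 given above, from GRCm38.p6 with the bases opposite the seed in capitals.
Jarid2, 8mer, chr13:44920078-44920100, plus strand: aactgattttgttttAGCATTAa
Jarid2, 8mer, chr13:44920851-44920873, plus strand: tgtgtccctcacatcAGCATTAa
Cebpb, 8mer, chr2:167690351-167690373, plus strand: accttttccgtttcgAGCATTAa
Inpp5d, 8mer, chr1:87719823-87719845, plus strand: gagatgtttttaaaaAGCATTAa
Tab2, 8mer, chr10:7906691-7906713, minus strand: tgccataaggtagaaAGCATTAa
Trp53inp1, 8mer, chr4:11170414-11170436, plus strand: ttttacactaacacaAGCATTAa
Hif1a, 7mer, chr12:73946724-73946746, plus strand: gtgagtaattttagaAGCATTAt
Zfp652, 7mer, chr11:95764497-95764519, plus strand: tttcacacaatatcaAGCATTAt

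Jarid2 held a pair of 8mers, both of them members. The match 913 nt after the stop codon lay in peaks of 84, 107 and 97 nt in replicates 1, 2 and 3, and the match at 140 nt lay in peaks of 266 and 163 nt in replicates 2 and 3 and in none of replicate 1. Wee1 and this Jarid2 match were the only matches of the list covered in all 3 libraries. Cebpb, a transcription factor of myeloid and fat cells, had its match in peaks of 128 and 203 nt in replicates 2 and 3. Inpp5d, the inositol phosphatase SHIP1, was covered in replicates 1 and 3, by peaks of 79 and 84 nt. Peaks that narrow belong to the class of at most 85 nt that made up most of all peaks. Inpp5d is a gene of blood cells, and the myeloid and lymphoid markers with a covered stretch were 1 of 10 and 2 of 9. Their part in this result was not tested.

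Trp53inp1, a stress-induced partner of p53, was covered in replicates 1 and 2, by peaks of 101 and 192 nt. Tab2, an adaptor of the kinase TAK1, had peaks of 145 and 110 nt in replicates 2 and 3. Hif1a, the oxygen-regulated subunit of hypoxia-inducible factor 1, had peaks of 129 and 116 nt there. Most of its 3′UTR was covered in these libraries, 1554 and 1183 of 1827 nt in replicates 2 and 3. Zfp652, a zinc finger repressor, had its 7mer 452 nt after the stop codon in peaks of 97 and 100 nt in the same libraries, while its 8mer at 359 nt was covered in replicate 2 alone. Of these genes Tab2, Hif1a and Zfp652 lacked a peak over the match in replicate 1.

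Among the reported targets without a member were several genes of immune signalling. Socs1, an inhibitor of cytokine signalling, had an 8mer 19 nt after the stop codon that was covered in replicate 1 alone, and so was the 8mer of Spi1, the myeloid transcription factor PU.1. Bach1, a haem-regulated repressor, had its 8mer covered in no library and its 7mer in replicate 3. The matches of Csf1r, Ctla4, Ets1 and Ripk1 were covered in no library.

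**Figure D4:**
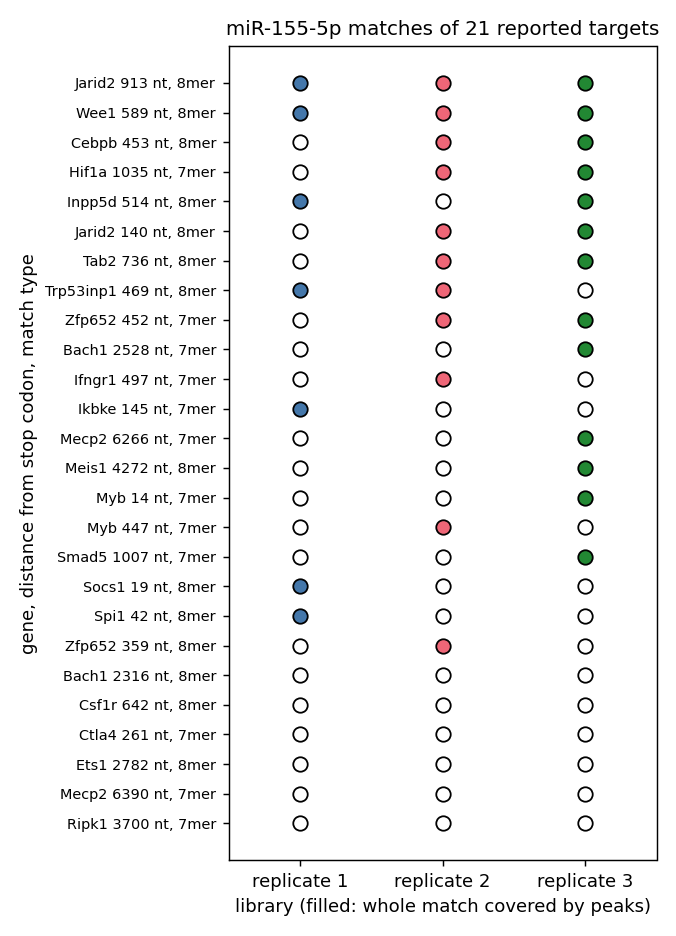
Coverage of 26 miR-155-5p matches in 21 reported target genes, 1 row per match with its distance from the stop codon (nt) and type, and 1 column per library. Filled circles mark matches wholly covered by peaks, with 2 matches covered in all 3 libraries and 6 in none.

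Other gene groups held 1 to 3 genes with a member each, apart from the marker lists. The neuronal and neuroblastoma, myeloid and lymphoid markers had 1, 2 and 2 genes with a match and 0 with a member. Over all genes, 14.4% of those with a match held a member, and 28.5% of those with a match and a stretch. Of the TGF-β and BMP signalling genes 5 had a match and 3 of them a member, which were the receptors Bmpr2 and Acvr2a and the corepressor Ski, each covered in replicates 2 and 3. Of the chromatin regulators and corepressors 9 had a match and 3 a member, namely Jarid2, the neuronal-gene repressor Rest and its corepressor Rcor1. The 8mer of Rest lay in peaks of 81 and 99 nt in replicates 1 and 2, within 2 nt of their middles. In the PI3K, mTOR and RAS-MAPK group 6 had a match and 2 a member, among them the stress kinase Mapk8. In the hypoxia group Hif1a was 1 of 2 genes with a match. Of the miRNA machinery, 3 had a match and 1 a member, Ago2 itself, whose 8mer lay 7632 nt after the stop codon in peaks of 95 and 381 nt in replicates 2 and 3. Peaks of these libraries covered 8942 and 8327 of the 11064 nt of the Ago2 3′UTR, so that coverage there was not local to the match. The counts above are from small groups, and no test was made of them.

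More than 1 member was found in 6 genes. They were Jarid2, the ETS transcription factor Etv1, the imprinted gene Mest, the selenoprotein gene Selenot, the neuronal transcription factor gene Tcf4 and the zinc finger gene Zfp704. Tcf4 held 3, of which 2 shared a stretch of 524 nt, and the other genes held 2 each. In Selenot a 7mer was covered in all 3 libraries and the other in replicates 2 and 3, and both matches of Etv1 were covered in replicates 2 and 3.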

How the data were processed

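The authors sequenced the Ago2 HITS-clip libraries, made a peak list of every sample and deposited these as 1 table of 7 columns per the file headers. The notes of the submitters name FastQC, cutadapt, STAR and mm10, and the peak caller and its threshold are not given in the sources used here. The deposited score lay between 54.6 and 60, without a stated unit, and was 60 for 98.9%, 99.3% and 99.6% of peaks of replicates 1, 2 and 3. It ranked nothing. There were 0 columns of other samples.

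Peaks were used as deposited on 21 chromosomes, with sequence from GRCm38.p6, 3′UTRs from GENCODE mouse M21 without the stop codon, and miRNAs from RefSeq. The members and gene lists were chosen with earlier results of these data known. Named were the first 25 members in the order given, members on the list of reported targets, genes with more than 1 member and examples of the other lists. Shares were tested with Fisher's exact test, values per 3′UTR with the exact sign test, differences between seeds with a logistic model, and p-values were adjusted by Benjamini-Hochberg. They treat matches as independent, and with 1 group they compare matches and not conditions. The miR-124-3p seed was not used here, and some genes counted in the lists are not reported by name. The code was tested on simulated data. Alternatives were the number and choice of libraries, peak width, trimming, score, strand, site type, flanks and comparison set. Computation used scipy 1.17.1, statsmodels 0.14.6, numpy 2.4.6, pandas 2.3.3 and matplotlib 3.10.9 under Python 3.11.15.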

Additional observations from a re-analysis of the deposited data

How the results depend on the processing

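Of 90 values under other settings, 67 kept their direction or, as counts and shares without one, stayed near the main value, some with a large change in size (the 8mer odds ratio was 2.97 with all 3 libraries), 13 counts and shares moved and 10 changed sign. None of 64 tests passed an adjusted p of 0.05 (lowest 0.288), and 1 had an unadjusted p under 0.05 (0.0433). The number of members was 51 with all 3 libraries required, 116 with peaks trimmed by 30 nt, 15 on the opposite strand and 651 with shorter matches of 6 nt allowed, and ranged from 76 without replicate 3 over 77 without replicate 2 to 206 without replicate 1. The share of matches covered was 2.59% with all 3 libraries, 9.51% with peaks of 86 to 200 nt, 5.90% with trimmed peaks and 0.763% on the opposite strand, and ranged from 3.86% to 10.5% with a replicate left out.

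The difference in A/T content, 2.92 points, turned to -3.33 with all 3 libraries and with peaks of 86 to 200 nt, to -1.67 at a score of 60, to -0.893 with flanks of 50 nt, and ranged from -2.92 without replicate 1 to 5 without replicate 2. The 8mer odds ratio was 0.835 with trimmed peaks and 0.725 within 3′UTRs, where that for coverage in replicate 1 was 0.672. The difference in supplementary matches was -2.68 points with trimmed peaks and -0.436 points against all matches outside the stretches in any 3′UTR, a comparison added after the data were seen. The cause was not tested. Coverage in replicate 2 had no defined odds ratio with trimmed peaks, and the miR-124-3p comparison was not run. No paired analysis was possible because all libraries belong to 1 group, which leaves no pairs of libraries (matches were paired within 3′UTRs). Read depth is unknown, so an uncovered match is not shown to be unbound.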
